A study of Mus musculus with 24 samples.

Results

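The genes described here encode the translation initiation factors of the mouse, the proteins that bring a ribosome, the initiator tRNA and a start codon together. They were taken as the protein-coding genes of GENCODE release M21 whose symbol begins with Eif and a digit from 1 to 6. The eIF2 kinases (symbols beginning Eif2ak) and the sex-linked pair Eif2s3x and Eif2s3y were left out. The rule found 49 genes among the 38924 listed in each file, and all 49 were present. Of these, 48 passed the filter on low counts and were tested with 17409 genes in all. The exception was Eif4e1b, a cap-binding relative of eIF4E known from oocytes, which had 5 reads over all 24 libraries.

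Initiation begins when eIF1, eIF1A and the multi-subunit eIF3 bind the small ribosomal subunit and eIF2 delivers the initiator tRNA as a complex with GTP. The cap of the mRNA is bound by eIF4E, which joins the scaffold eIF4G and the RNA helicase eIF4A, and the 4E-binding proteins block that contact. After the start codon is found, eIF5 triggers GTP hydrolysis by eIF2, eIF5B joins the large subunit, and eIF2B reloads eIF2 with GTP. Kinases such as Gcn2 phosphorylate the alpha subunit of eIF2, which turns it into an inhibitor of eIF2B. That phosphorylation is on the protein, so the transcript levels given here do not measure it directly.

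RNA came from whole spinal cord of mice aged 8 weeks in 24 libraries, 13 labelled male and 11 female, on a background labelled B6J;CASTxB6.129. The mutant allele GarsP278KY lies in the gene for glycyl-tRNA synthetase, where dominant mutations cause a motor and sensory neuropathy, and mutant mice carried 1 copy of it. The gene for Gcn2, Eif2ak4, was intact (Gcn2+/+), lost from 1 copy (Gcn2+/-) or lost from both (Gcn2-/-). Gcn2+/+ libraries numbered 4 with Gars+/+ (1 female) and 4 with GarsP278KY/+ (3 female). Gcn2+/- libraries numbered 4 with Gars+/+ (1 female) and 4 with GarsP278KY/+ (2 female). Gcn2-/- libraries numbered 3 with Gars+/+ (2 female) and 5 with GarsP278KY/+ (2 female). Sex was thus uneven over the groups, and so were the numbers in the sample titles, as given below. The fit included sex, but the CPM of single libraries given below is not adjusted for it. The labels do not say in which cells Gcn2 was lost or which strain each allele came from. The series' design text lists the 4 genotypes with intact or absent Gcn2, and the Gcn2+/- mice appear in the sample labels only. Nothing in the labels says in words that each library is a separate animal, so the p-values below measure the spread between these libraries.

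Library totals ran from 19.7 M to 32.4 M counts. Levels of a gene across libraries are given as CPM (counts of the gene per 1 M counts of the library, scaled by TMM, a correction for differences in RNA composition) with SDs. Levels of different genes are compared as TPM, which is per transcript length. Eif2ak4 followed the labels, with no overlap between the 3 Gcn2 genotypes in any of the 24 libraries. It had 31.2 ± 2.39 and 32.1 ± 1.01 CPM in the Gcn2+/+ groups, 22.7 ± 0.893 and 22.4 ± 1.41 in the Gcn2+/- groups and 13.6 ± 1.91 and 13.0 ± 1.28 in the Gcn2-/- groups, each with Gars+/+ first. Markers of neurons, oligodendrocytes, astrocytes and microglia were present in every group, and none of the 4 lists had a member at 0 in a group. Some libraries stood apart in other tissue. The summed CPM of 15 Schwann cell and nerve root markers was 1152 and 2442 in replicates 2 and 4 of the Gcn2+/+ GarsP278KY/+ mice and 1164 and 2077 in replicates 1 and 3 of the Gcn2+/- Gars+/+ mice, against 151 to 375 in the other libraries.

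Initiation factor transcripts were abundant in spinal cord. Their median TPM was 62.7 against 13.7 for all tested genes, and 15 members lay above 100 TPM, 30 between 10 and 100 and 4 below 10. Together they made up 4805 ± 122 TPM (SD over 24 libraries), with single libraries between 4532 and 5057. Levels are given as means ± SD over the 24 libraries.

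The 5 genes of the eIF4A helicase and its cofactors held the most transcript, at a summed mean of 1304 TPM against 1183 TPM for the 14 eIF3 genes. Eif4a2, a helicase known to be high in brain, led all members at 703 ± 36.1 TPM, and Eif4a3, which acts in the exon junction complex, was the lowest of its group at 65.3 ± 5.22 TPM. Among the factors that bind the small subunit, Eif1, which guards start codon choice, stood at 341 ± 55.7 TPM and Eif1ad at 15.4 ± 1.09. The scaffold Eif4g2, an eIF4G relative that lacks the eIF4E contact, had 338 ± 19.9 TPM, and Eif4g3 had 90.4 ± 6.75. Eif5a, which helps ribosomes through difficult peptide bonds, had 264 ± 10.4 TPM, and Eif5b had 21.6 ± 0.809 TPM, the lowest of the joining factors.

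Subunits that work in 1 complex did not have equal transcript levels. Within eIF3 the levels ran from 182 ± 19.1 TPM for Eif3k to 16.8 ± 2.27 for Eif3j1, a loosely bound subunit. In eIF2B they ran from 105 ± 25.8 for Eif2b2 to 18.4 ± 1.48 for Eif2b3. The TPM of Eif2b2 is uncertain, because its TPM per CPM varied 1.73-fold over the libraries, the most of 47 members compared. In reads it was below Eif2b5, with 17843 against 31547 over all libraries. Of the genes for tRNA delivery, Eif2s2, the beta subunit of eIF2, had 62.7 ± 3.57 TPM and Eif2s1, the alpha subunit that Gcn2 phosphorylates, had 22.0 ± 1.31. Eif4e, the main cap-binding protein, had 58.8 ± 3.28 TPM. The inhibitors and transporter of eIF4E were low, from 30.2 ± 3.20 TPM for Eif4enif1 to 0.738 ± 0.726 for Eif4ebp3.

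**Figure D1:**
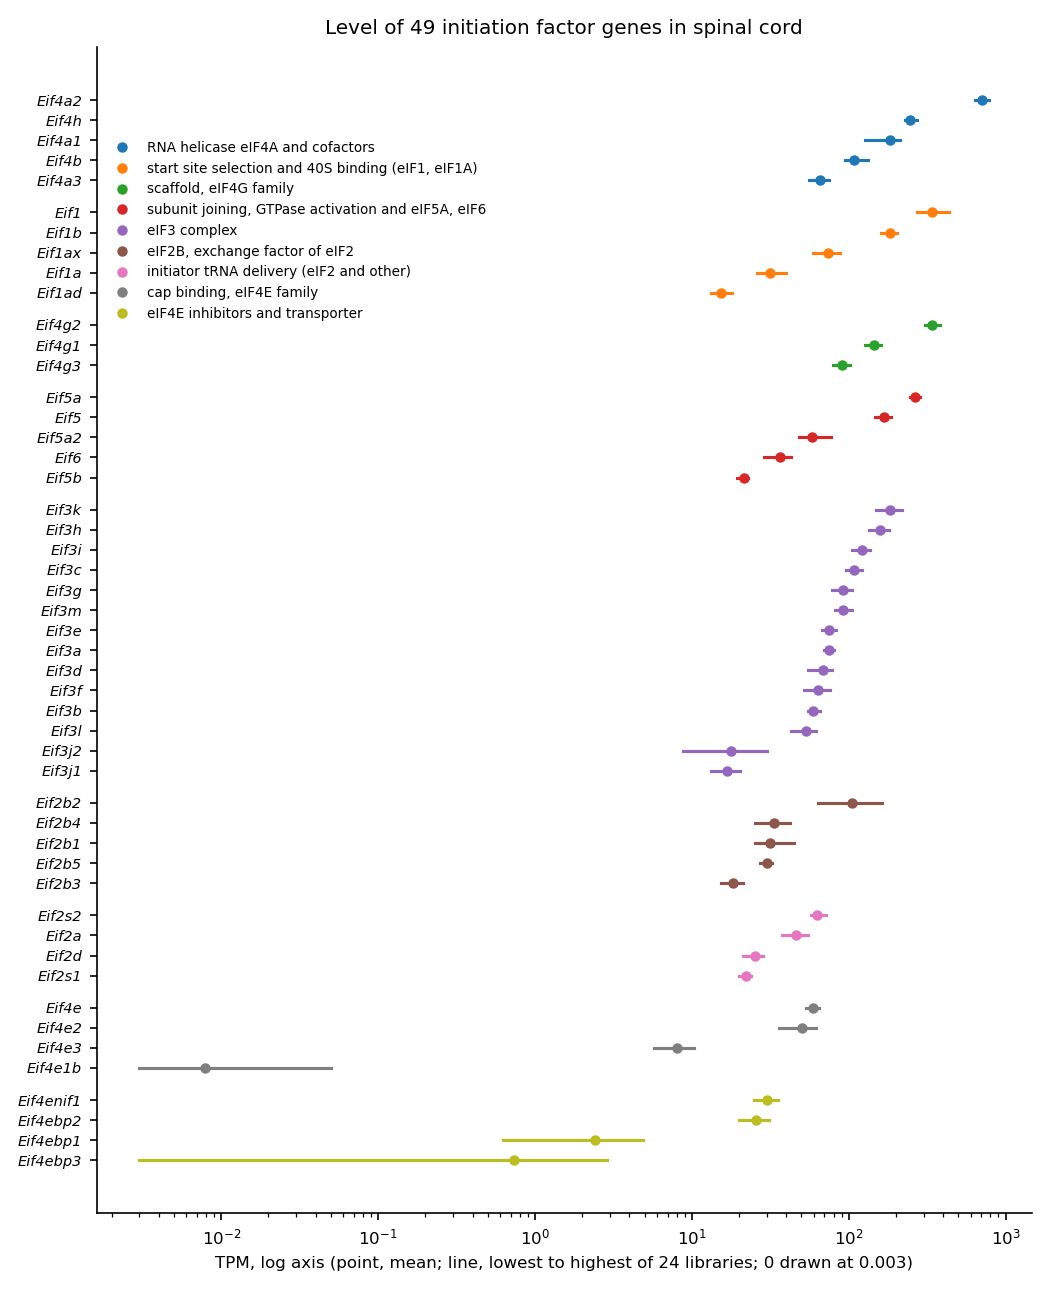
Level of each of the 49 members in spinal cord on a log axis of TPM, grouped by role. Points are means and lines run from the lowest to the highest of the 24 libraries. Eif4a2 is the highest at 703 TPM, and Eif4e1b and the lower 4E-binding proteins lie at the other end.

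In 6 of 7 pairs of related genes compared outside Eif3j1 and Eif3j2, the same one was higher in all 24 libraries. The TPM ratio of Eif4a2 to Eif4a1 was 3.94 ± 0.583 and never below 3.05. Eif5a exceeded Eif5a2, the isoform known as the rarer form in most tissues, by 4.57 ± 0.555 in TPM. Eif1 exceeded Eif1b by 1.87 ± 0.375, and the X-linked Eif1ax exceeded Eif1a by 2.34 ± 0.307. Eif4ebp2, the 4E-binding protein known as the main form in brain, exceeded Eif4ebp1 by 5.69 to 38.3 times. Eif4g2 exceeded Eif4g1, the main scaffold, by 2.34 ± 0.302. In the other pair the ratio of Eif4e to Eif4e2 ran from 0.861 to 1.76.

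Most members varied little between libraries. Of those with at least 10 CPM on average, 46 members had a median SD of log2 CPM within groups of 0.0952, beside 0.118 for the 10232 tested genes from 10 CPM up to the highest member. The largest within-group SDs were those of Eif4ebp3 at 0.401, Eif4ebp1 at 0.354 and Eif4a1 at 0.316, after a pseudocount of 0.5 CPM. Eif4ebp3 and Eif4ebp1 rested on 133 and 620 reads over all libraries. Eif4a1 had 73903 reads, but 25.4% of the 75-base windows of its annotated transcripts occur unchanged in another gene, most of them in the pseudogene Eif4a-ps4. Its values ranged from 66.9 to 148 CPM and were uncertain for that reason.

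The pair with the most shared sequence was Eif3j1 and Eif3j2. Eif3j1 (ENSMUSG00000027236) lies on chromosome 2 at 122028546 to 122056598 on GRCm38, and Eif3j2 (ENSMUSG00000043424) is a copy of it on chromosome 18, at 43475418 to 43477796. The 2379-base transcript of Eif3j2 aligned from end to end with the transcript Eif3j1-201. Over 2369 aligned bases it differed by 4 substitutions and 2 gaps of 6 and 4 bases. The coding part of Eif3j1-201, from base 128 to base 910, held 0 of the substitutions and 1 of the gaps, at base 129. Of all 75-base windows of Eif3j2, 87.4% occur in Eif3j1, and 35.0% of those of Eif3j1 occur in Eif3j2. The deposited expected counts share out such reads: Eif3j2 had a whole-number count in 0 of 24 libraries and Eif3j1 in 1. The separate values of both genes are therefore uncertain.

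With loss of Gcn2 the counts assigned to Eif3j1 rose and those assigned to Eif3j2 fell, and these were the only members called by edgeR in the 3 comparisons of Gcn2-/- with Gcn2+/+ mice. In the Gcn2+/+ Gars+/+ mice Eif3j2 had 25.2, 35.9, 38.4 and 30.4 CPM, and in the Gcn2+/+ GarsP278KY/+ mice 26.5, 20.5, 27.8 and 29.1. In the Gcn2-/- Gars+/+ mice it had 13.6, 17.2 and 22.0 CPM, and in the Gcn2-/- GarsP278KY/+ mice 18.2, 10.5, 10.7, 15.2 and 12.3. The Gcn2-/- libraries were low, and they overlapped the Gcn2+/+ ones by 1 library on each side.

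Eif3j1 went the other way. It had 39.5, 46.1, 42.0 and 47.1 CPM in the Gcn2+/+ Gars+/+ mice and 38.0, 47.5, 38.7 and 40.5 in the Gcn2+/+ GarsP278KY/+ mice. In the Gcn2-/- mice it had 46.5, 60.0 and 60.7 CPM with Gars+/+ and 58.4, 55.1, 56.7, 58.98 and 53.7 with GarsP278KY/+. Replicate 1 of the Gcn2-/- Gars+/+ mice lay inside the Gcn2+/+ range, and the other 7 Gcn2-/- libraries lay above it.

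Averaged over both Gars genotypes, 2 of 48 members were called (0.62% of all tested genes were). A call is an adjusted p below 0.05 in edgeR's quasi-likelihood test, adjusted by Benjamini-Hochberg across every gene in the fit. The log2 change of Eif3j2 was -0.93 ± 0.13 with its SE (edgeR adjusted p = 0.00124), and that of Eif3j1 was 0.40 ± 0.06 (edgeR adjusted p = 0.00275). With mutant Gars on both sides, 2 members were called (0.494% of all genes). There Eif3j1 rose by 0.49 ± 0.09 (edgeR adjusted p = 0.00738) and Eif3j2 fell by 0.91 ± 0.18 (edgeR adjusted p = 0.0165). With Gars+/+ on both sides 0 members were called (0.0287% of all genes), and 4 had an unadjusted p below 0.05 (3.68% of all). Eif3j2 stood at -0.95 ± 0.21 (edgeR adjusted p = 0.28), Eif3j1 at 0.31 ± 0.10 (0.93) and Eif4a3 at 0.16 ± 0.07 (1.0). DESeq2 called 1 member there, Eif3j2 with an adjusted p of 0.00335 (0.219% of its genes).

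Added together, the reads of both genes did not differ detectably. The sum of Eif3j1 and Eif3j2 was 76.2 ± 7.85 and 67.1 ± 2.13 CPM in the Gcn2+/+ mice with Gars+/+ and GarsP278KY/+, and 73.4 ± 11.8 and 70.0 ± 5.07 CPM in the Gcn2-/- mice. Refitted as 1 gene, their log2 change with loss of Gcn2, averaged over Gars genotypes, was 0.00084 ± 0.068, with a 95% interval from -0.14 to 0.14 (edgeR adjusted p = 1.0). With mutant Gars it was 0.097 ± 0.093 and with Gars+/+ -0.095 ± 0.11. The TPM ratio of Eif3j1 to Eif3j2 was 0.588 ± 0.102 in the Gcn2+/+ Gars+/+ mice, 0.723 ± 0.206 in Gcn2+/+ GarsP278KY/+, 1.36 ± 0.169 in Gcn2-/- Gars+/+ and 1.87 ± 0.372 in Gcn2-/- GarsP278KY/+. In the Gcn2+/- mice it lay between, at 1.04 ± 0.179 with Gars+/+ and 0.819 ± 0.0541 with GarsP278KY/+.

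**Figure D2:**
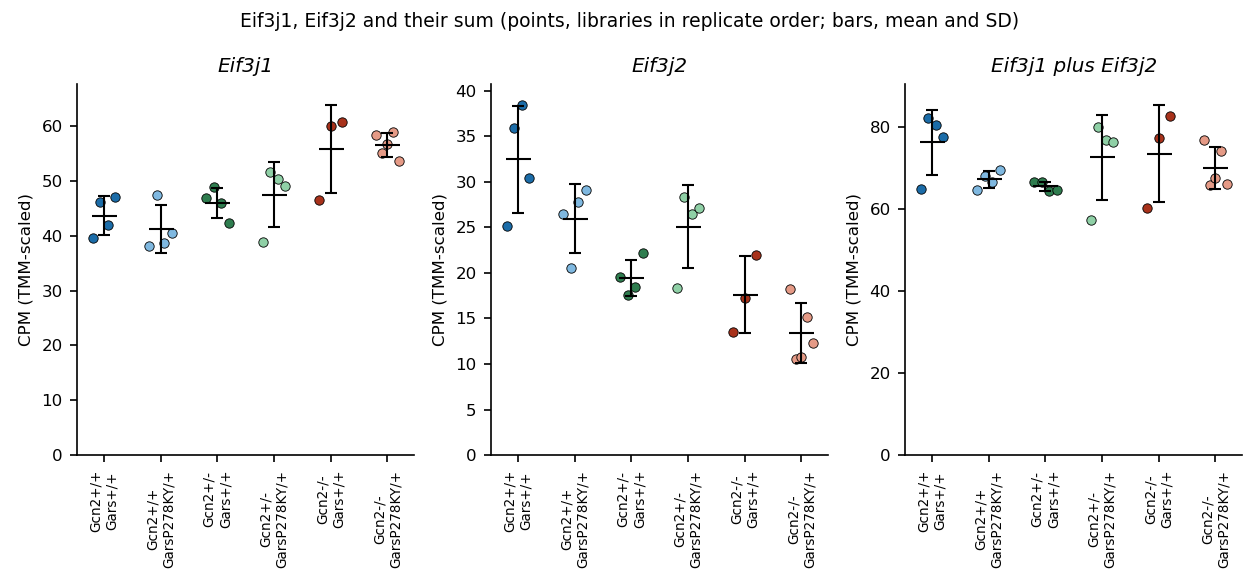
CPM of Eif3j1, Eif3j2 and their sum in each library (points) with the mean and SD of each of the 6 genotypes (bars). Eif3j2 is lower and Eif3j1 higher in the Gcn2-/- mice, while the sum stays between 57.2 and 82.7 CPM in the 24 libraries.

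Eif3j1 lies 3.55 Mb from Eif2ak4 on chromosome 2, the nearest of 4 members on that chromosome. Eif3m lies 13.4 Mb away, Eif2s2 36.4 Mb and Eif6 37.3 Mb. What part the linked sequence or the sharing of reads had in the opposite changes was not tested. Without 1 of 5 libraries the call of Eif3j2 with mutant Gars ended: its edgeR adjusted p was 0.088, 0.0513 and 0.0653 without replicates 1, 3 and 4 of the Gcn2+/+ GarsP278KY/+ mice and 0.0514 and 0.0757 without replicates 3 and 5 of the Gcn2-/- GarsP278KY/+ mice. Fitted on the compared groups alone, neither was called with mutant Gars (edgeR adjusted p = 0.0935 for Eif3j1 and 0.193 for Eif3j2), and without the 4 libraries high in Schwann cell markers Eif3j2 was at an adjusted p of 0.0756. With the number in the sample title as a replicate block, 1 member stayed called with mutant Gars, and the labels do not say what that number marks. The averaged changes of Eif3j1 and Eif3j2 were called with any 1 library left out. The 216 bases before the annotated start of Eif3j1 are shown because they precede the transcript that the copies share (RefSeq, GRCm38.p6, plus strand, chr2:122028330-122028545), and held none of the 3 motifs searched below.
Eif3j1: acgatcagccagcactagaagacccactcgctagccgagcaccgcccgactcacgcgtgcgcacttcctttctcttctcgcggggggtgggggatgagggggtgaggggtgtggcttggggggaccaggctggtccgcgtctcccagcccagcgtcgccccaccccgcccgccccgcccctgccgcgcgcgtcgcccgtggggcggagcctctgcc

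The other 46 tested members were not called with loss of Gcn2. Next in the averaged comparison was Eif6, which keeps the large ribosomal subunit from joining too early, at 0.18 ± 0.05 (edgeR adjusted p = 0.162). It was also the third member by p with mutant Gars, at 0.20 ± 0.07 (edgeR adjusted p = 0.312). Eif4ebp1, which blocks eIF4E and is known as a target of the stress factor ATF4, stood at -0.79 ± 0.28 in the averaged comparison, with an interval from -1.37 to -0.22 (edgeR adjusted p = 0.458). Its changes were -0.70 ± 0.45 with Gars+/+ and -0.88 ± 0.36 with mutant Gars (edgeR adjusted p = 1.0 and 0.394). The 48 members had a median log2 change of 0.016 beside -0.0017 for all tested genes. For 42 of the 48 the 95% interval of the averaged change lay within 0.32 of 0 on the log2 scale, as it did for 59.6% of all tested genes. Here and for each such share below, the genes were not matched on level. The median TPM was 62.7 for members and 13.7 for all tested genes, so these shares do not show that members changed less.

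With Gcn2 intact, no member was called for mutant Gars. Of 48 members, 0 passed the test (0.632% of all genes did), and 9 had an unadjusted p below 0.05 (17.3% of all genes). DESeq2 called 4 (4.32% of its genes): Eif3c, Eif5a2, Eif1ax and Eif4g2. The median log2 change of the members was -0.0066 beside 0.012 for all tested genes.

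Eif3c, a core subunit of eIF3, had the smallest p. It had 191, 184, 179 and 185 CPM in the Gcn2+/+ Gars+/+ mice and 206, 205, 215 and 201 in the Gcn2+/+ GarsP278KY/+ mice. Its log2 change was 0.18 ± 0.05 (edgeR adjusted p = 0.0818; DESeq2 0.0098).

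Eif5a2 had 151, 215, 214 and 169 CPM with Gars+/+ and 142, 126, 141 and 134 with mutant Gars. Its log2 change was -0.47 ± 0.13 (edgeR adjusted p = 0.0916, DESeq2 adjusted p = 0.0174). Eif1ax, which encodes eIF1A, had 174, 235, 212 and 181 CPM against 145, 163, 146 and 154. It stood at -0.38 ± 0.11 (edgeR adjusted p = 0.0986, DESeq2 adjusted p = 0.0227). On the scale of TPM the gap of Eif1ax was smaller, with 74.9 ± 9.08 against 71.5 ± 3.13, and the 2 groups overlapped within their SDs. Eif4g2 stood at -0.22 ± 0.07 (DESeq2 adjusted p = 0.0479). Without replicate 1 of the Gcn2+/+ Gars+/+ mice edgeR called 4 members and 3.45% of all genes, and without replicate 1 of the Gcn2-/- GarsP278KY/+ mice 1 member and 1.17% of all genes.

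Motor neuron markers were lower in these mutant libraries: 9 markers summed to 118 to 141 CPM, against 215 to 265 in the Gcn2+/+ Gars+/+ mice. The sum of 6 general neuron markers was also lower, at 2473 to 2718 against 2918 to 3266 CPM. The 4 astrocyte markers summed to 3584 to 4294 against 2427 to 3746 CPM. The Schwann cell markers were high in 2 of the 4, as given above. In bulk tissue, fewer cells of a type and less RNA per cell cannot be told apart. Without the 4 libraries high in Schwann cell markers the log2 changes were 0.19 for Eif3c, -0.41 for Eif5a2 and -0.45 for Eif1ax. The part of the other cell types in the members' values was not tested.

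In the Gcn2-/- mice 0 of 48 members were called for mutant Gars (0.0115% of all genes), with 5 at an unadjusted p below 0.05 (4.35% of all) and 0 by DESeq2 (0.156% of its genes). Eif3f, an eIF3 subunit with deubiquitinase activity, had the smallest p. It had 70.5, 72.6 and 75.2 CPM with Gars+/+ and 84.0, 88.6, 92.1, 76.2 and 85.4 with mutant Gars. Its log2 change was 0.24 ± 0.07 (edgeR adjusted p = 0.865). Eif3b, the scaffold subunit of eIF3, stood at 0.10 ± 0.04 and Eif4ebp1 at 0.97 ± 0.42 (both edgeR adjusted p = 0.941). For Eif4ebp1 in the Gcn2+/+ mice the change was 1.15 ± 0.41 (edgeR adjusted p = 0.167). That value was 0.70 without replicate 4 of the Gcn2+/+ Gars+/+ mice, 1.61 without replicate 1 of the Gcn2+/+ GarsP278KY/+ mice and 0.73 without the 4 libraries high in Schwann cell markers. The difference between the changes in Gcn2-/- and Gcn2+/+ mice was -0.18 ± 0.61, with an interval from -1.44 to 1.09 (edgeR adjusted p = 0.986). Its sign turned with 1 library left out, to 0.31 without replicate 4 of the Gcn2+/+ Gars+/+ mice and to 0.087 without replicate 1 of the Gcn2-/- Gars+/+ mice, and it was -0.69 without replicate 1 of the Gcn2+/+ GarsP278KY/+ mice. It was also positive without the 4 libraries high in Schwann cell markers (0.23), with those markers as a covariate (0.18) and with no sex term (0.14).

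Eif4ebp1 had few reads. It had 1.08, 0.886, 1.13 and 0.267 CPM in the Gcn2+/+ Gars+/+ mice and 0.817, 1.84, 1.62 and 2.01 with mutant Gars. The Gcn2-/- mice had 0.648, 0.299 and 0.446 CPM with Gars+/+ and 0.527, 1.02, 1.39, 0.715 and 1.09 with mutant Gars. Both pairs of groups overlap. Counts of the gene in single libraries ran from 8 to 56.

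Over all members, the Gars effect did not differ detectably between Gcn2-/- and Gcn2+/+ mice. By edgeR 0 members were called (0.0115% of all genes), 2 had an unadjusted p below 0.05 (4.93% of all) and DESeq2 called 0 (0.202% of its genes). The smallest p values belonged to Eif4a3 at -0.25 ± 0.09, Eif3b at 0.14 ± 0.06 and Eif3c at -0.12 ± 0.07 (all edgeR adjusted p = 0.937). For 25 of 48 members the 95% interval of this difference lay within 0.32 of 0, and 22.4% of all tested genes had such an interval.

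In the Gcn2+/- mice 0 of 48 members were called for mutant Gars (0.178% of all genes), with 12 at an unadjusted p below 0.05 (14.7% of all) and 0 by DESeq2 (1.51% of its genes). Eif4h, which stimulates eIF4A, stood at 0.13 ± 0.04 (edgeR adjusted p = 0.221), Eif3f at -0.19 ± 0.06 (0.231) and Eif3l, an outer eIF3 subunit, at -0.19 ± 0.08 (0.284). Eif4ebp1 stood at -0.66 ± 0.38 (edgeR adjusted p = 0.432), the opposite sign to that in both other Gcn2 genotypes. Over the 24 libraries its log2 CPM went with the Schwann cell marker sum at r = 0.618 and rho = 0.615, given as a description. With the share of mitochondrial counts r was -0.554 and rho -0.532. With the balance of long and short genes described below r was -0.436 and rho -0.431, and the part of these measures was not tested. The libraries high in Schwann cell markers lie in Gcn2+/+ GarsP278KY/+ and Gcn2+/- Gars+/+. With the marker sum as a covariate the change of Eif4ebp1 in Gcn2+/- mice was -0.36 and that in Gcn2+/+ mice 0.79. Motor neuron markers summed to 122 to 162 CPM in the Gcn2+/- mice with mutant Gars against 196 to 237 with Gars+/+, and the part of these markers was not tested.

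Averaged over the 3 Gcn2 genotypes, 0 members were called for mutant Gars (0.448% of all genes), with 8 at an unadjusted p below 0.05 (8.92% of all). Eif3c was first at 0.094 ± 0.027 (edgeR adjusted p = 0.171), and was the 1 member called by DESeq2 (adjusted p = 0.0258; 1.17% of its genes). Eif2s2 followed at 0.081 ± 0.027 (edgeR adjusted p = 0.268). Eif4e3, a cap-binding relative of eIF4E, stood at -0.26 ± 0.10 (edgeR adjusted p = 0.357) and lies 44.5 Mb from Gars on chromosome 6. Eif4ebp1 stood at 0.49 ± 0.23 (edgeR adjusted p = 0.553). The 95% interval lay within 0.32 of 0 for 43 of 48 members and for 64.9% of all tested genes.

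**Figure D3:**
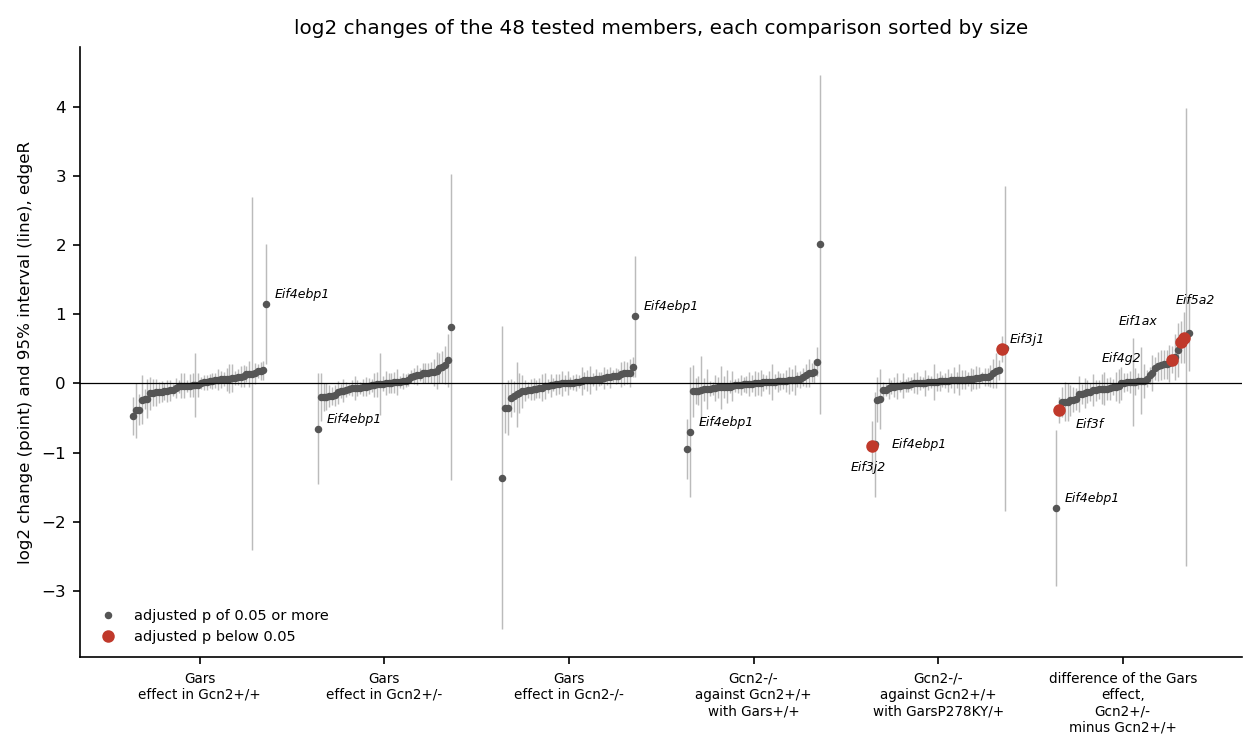
log2 change of the 48 tested members in 6 comparisons, each sorted by size, with 95% intervals as lines. Red points passed the test (edgeR adjusted p below 0.05), and most members lie close to 0. The long lines belong to Eif4ebp3 and Eif4ebp1, which had few reads.

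The effect of mutant Gars differed between Gcn2+/- and Gcn2+/+ mice for 4 of 48 members (3.7% of all genes were called). It was higher in the Gcn2+/- mice for Eif1ax by 0.60 ± 0.15 (edgeR adjusted p = 0.0399), for Eif5a2 by 0.66 ± 0.18 (0.0459) and for Eif4g2 by 0.34 ± 0.09 (0.0491). For Eif3f it was lower, at -0.38 ± 0.09 (edgeR adjusted p = 0.0399). The members' share was 4 of 48 and their median difference 0.0028, beside -0.027 for all tested genes. Eif4ebp1 stood at -1.80 ± 0.54, just outside the threshold (edgeR adjusted p = 0.0596; DESeq2 0.0261). In the Gcn2+/- mice it had 1.37, 1.14, 1.46 and 1.02 CPM with Gars+/+ and 1.01, 0.672, 0.447 and 0.85 with mutant Gars. The mutant libraries were the lower ones, but the groups nearly touched, at 1.01 against 1.02 CPM. Counts of the gene were few, from 8 to 56 in single libraries.

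The library values of the called members follow. Eif1ax had 184, 170, 148 and 153 CPM in the Gcn2+/- Gars+/+ mice and 175, 197, 183 and 203 in the Gcn2+/- GarsP278KY/+ mice. The mutant libraries were mostly high, with overlap, where those of the Gcn2+/+ mice given above were low. Eif5a2 had 158, 148, 128 and 148 CPM against 132, 188, 170 and 174, with overlap through replicate 1 of the mutant group.

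Eif4g2 had 792, 731, 694 and 684 CPM in the Gcn2+/- Gars+/+ mice and 722, 815, 807 and 823 with mutant Gars. In the Gcn2+/+ mice it had 700.3, 828, 832 and 871 CPM with Gars+/+ and 699, 689, 685 and 725 with mutant Gars. Both pairs overlap, and in both replicate 1 of the higher group was the low one. Eif3f showed the opposite pattern. It had 84.5, 85.2, 85.3 and 86.6 CPM in the Gcn2+/- Gars+/+ mice and 70.7, 72.9, 81.5 and 76.9 with mutant Gars. In the Gcn2+/+ mice its levels were 66.4, 68.6, 77.6 and 79.7 CPM against 86.3, 88.5, 83.7 and 79.0, with overlap of 1 library on each side.

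**Figure D4:**
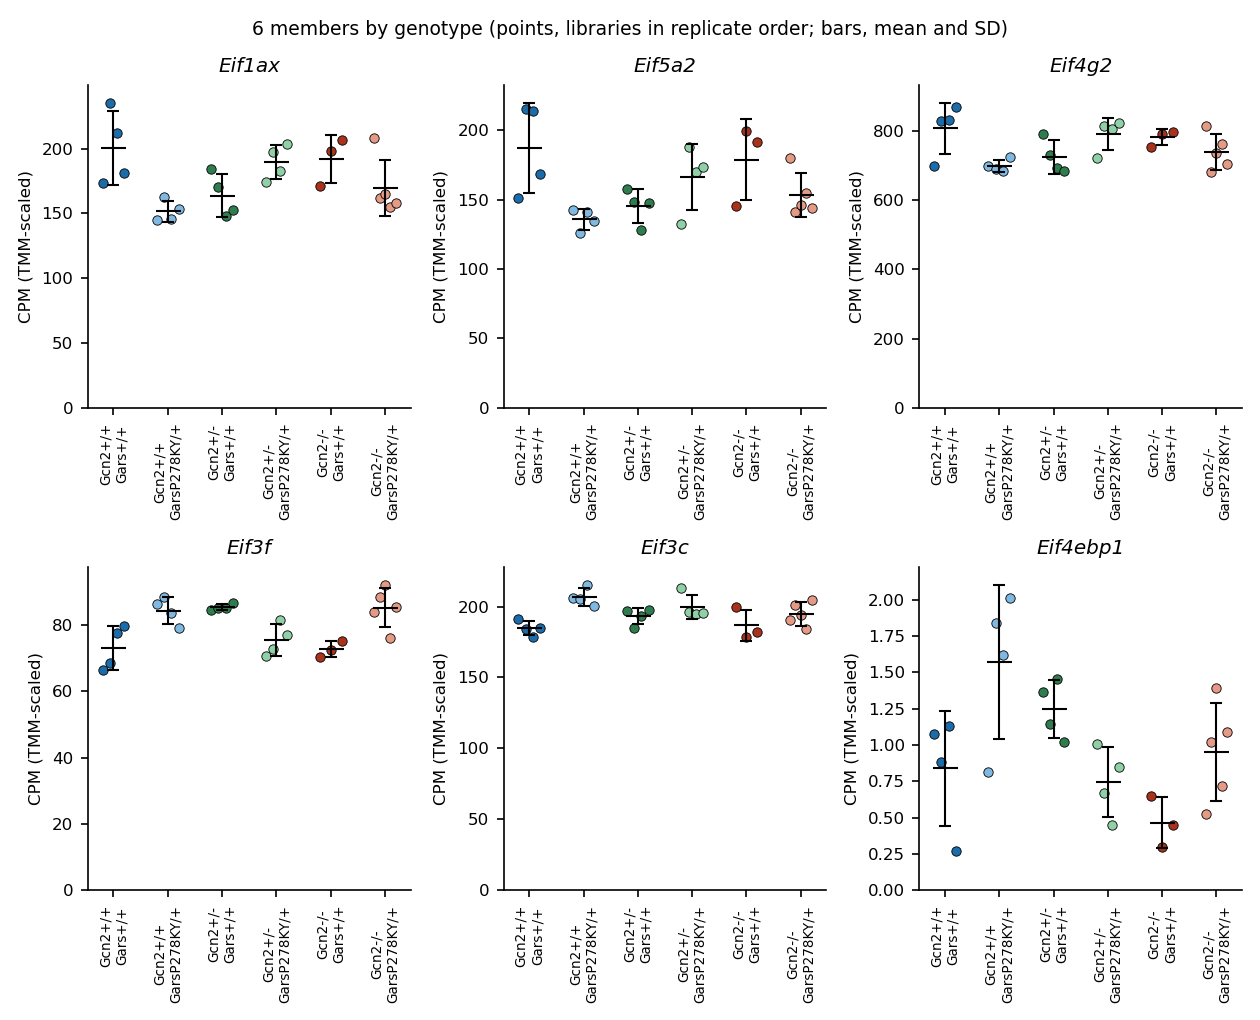
CPM of Eif1ax, Eif5a2, Eif4g2, Eif3f, Eif3c and Eif4ebp1 in each library (points), with the mean and SD of each genotype (bars). Eif1ax has means of 201 and 152 CPM in the Gcn2+/+ mice with Gars+/+ and mutant Gars, and of 164 and 190 in the Gcn2+/- mice.

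These 4 calls were close to the threshold. DESeq2 called 7 members (10.2% of its genes), these 4 with Eif4ebp1, Eif4a2 and Eif3g. Fitted on the 4 groups of the comparison alone, edgeR called 0 members and 0 genes. With the number in the sample title as a replicate block it also called 0 members, and the labels do not say what that number marks. With 1 library left out, the members called ran from 0 to 11. They numbered 0 without any 1 of replicates 2, 3 or 4 of the Gcn2+/+ Gars+/+ or the Gcn2+/+ GarsP278KY/+ mice. They were also 0 without any 1 of replicates 2, 3 or 4 of the Gcn2+/- GarsP278KY/+ mice, or of replicates 3 or 4 of the Gcn2+/- Gars+/+ mice. In these fits 0% to 0.443% of all genes were called. Without replicate 1 of the Gcn2+/+ Gars+/+ mice 11 members and 10.3% of all genes were called. Without replicate 1 of the Gcn2+/- GarsP278KY/+ mice 9 members and 9.17% of all genes were called. Without replicate 1 of the Gcn2+/+ GarsP278KY/+ mice 1 member and 1.77% of all genes were called. Leaving out replicate 2 of the Gcn2+/- Gars+/+ mice, replicate 3 of the Gcn2-/- Gars+/+ mice, or replicate 2, 3 or 4 of the Gcn2-/- GarsP278KY/+ mice left 2 members. There 1.59% to 2.1% of all genes were called. With 1 library left out, the log2 differences stayed between 0.53 and 0.67 for Eif1ax, 0.59 and 0.76 for Eif5a2, 0.30 and 0.41 for Eif4g2 and -0.42 and -0.33 for Eif3f.

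The libraries also differed in their balance of long and short transcripts. For this, the mean over the libraries was first subtracted from the log2 level of each gene. The balance is the median of these values over the 3009 longest genes above 5 CPM minus that over the 3009 shortest. It ran from -0.067 to 0.082 in the Gcn2+/+ Gars+/+ mice and from -0.065 to 0.039 with mutant Gars. In the Gcn2+/- mice it ran from -0.055 to -0.020 with Gars+/+ and from -0.072 to 0.069 with mutant Gars. The permutations below take no account of genotype, of title number or of how the members were picked. Eif4g2, Eif1ax and Eif5a2, all called above, are themselves among the long genes that define this balance. Over 24 libraries it went with log2 CPM of Eif4g2 at Pearson's r = 0.802 (permutation p = 1e-05, the smallest these permutations can give; adjusted over 3 relations 3e-05) and Spearman's rho = 0.774 (permutation p = 2e-05). For Eif1ax r was 0.72 and rho 0.677, and for Eif5a2 they were 0.715 and 0.659 (permutation adjusted p of r = 9e-05 for both, of rho = 0.00046 for both). Without the 2 libraries farthest from the median r was 0.739, 0.725 and 0.679 for Eif4g2, Eif1ax and Eif5a2. The median r of all 3009 long genes was 0.0976, and the other 5 members among them ran from -0.679 for Eif4g1 to 0.34 for Eif3a. Eif3f, also called above but not among the long genes, had an r of -0.175, given as a description. The share of mitochondrial counts ran from 5.84% to 8.79%. Over the 24 libraries it had an r of 0.793 with Eif4g2, 0.73 with Eif1ax, 0.702 with Eif5a2 and -0.426 with Eif3f. These values are given as a description, and the part of this share was not tested. That share ran from 5.84% to 7.73% in the Gcn2+/- mice with Gars+/+ and from 6.96% to 8.07% with mutant Gars.

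Numbers in the titles fall into 2 sets, lower and higher, of 12 libraries each, and the labels do not say what they mark. The lower set held 1 of 4 Gcn2+/+ Gars+/+ libraries and 3 of 3 Gcn2-/- Gars+/+ libraries. It held 2 of 4 in Gcn2+/+ GarsP278KY/+ and in both Gcn2+/- groups, and 2 of 5 in Gcn2-/- GarsP278KY/+. Loss of Gcn2 with Gars+/+ is thus partly confounded with title set. Within the lower and the higher set r was 0.965 and 0.672 for Eif4g2, 0.933 and 0.505 for Eif1ax and 0.86 and 0.555 for Eif5a2. With this balance as a covariate, chosen after the data were seen, the differences became 0.15 for Eif4g2, 0.33 for Eif1ax, 0.33 for Eif5a2 and -0.50 for Eif3f (edgeR adjusted p = 0.577, 0.458, 0.546 and 0.197), and 1 gene of all those tested was called.

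Without the 4 libraries high in Schwann cell markers the differences were 0.40, 0.68, 0.58 and -0.39 in the same order (edgeR adjusted p = 0.17, 0.17, 0.204 and 0.17). The part of either measure in these differences was not tested further. For Eif1ax the level also depends on the unit. Its TPM was 75.0 ± 5.23 and 71.1 ± 6.29 in the Gcn2+/- mice with Gars+/+ and mutant Gars, so the sign of the gap in CPM did not hold in TPM.

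**Figure D5:**
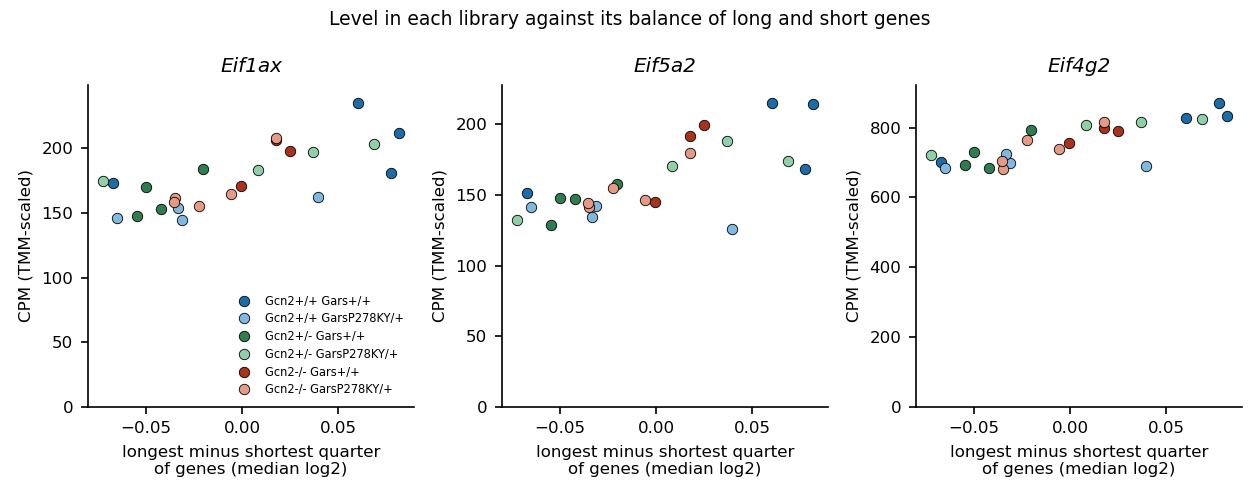
CPM of Eif1ax, Eif5a2 and Eif4g2 in each of the 24 libraries against the balance of long and short genes in that library, coloured by genotype. Libraries with relatively more reads from long genes tend to have more of all 3, with r of 0.72, 0.715 and 0.802.

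The stretches before the annotated starts of 3 of these genes are shown for their motifs. They come from RefSeq (GRCm38.p6, plus strand): chrX:159371928-159372177 for Eif1ax, chr3:28781027-28781275 for Eif5a2 and chr7:108934165-108934414 for Eif3f. Capitals mark matches to the ETS motif CCGGAAG or its reverse complement.
Eif1ax: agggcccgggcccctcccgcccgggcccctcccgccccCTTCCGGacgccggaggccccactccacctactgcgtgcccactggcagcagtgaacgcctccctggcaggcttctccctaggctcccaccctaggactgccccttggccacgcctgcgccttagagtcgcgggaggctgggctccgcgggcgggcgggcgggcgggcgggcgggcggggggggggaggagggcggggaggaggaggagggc
Eif5a2: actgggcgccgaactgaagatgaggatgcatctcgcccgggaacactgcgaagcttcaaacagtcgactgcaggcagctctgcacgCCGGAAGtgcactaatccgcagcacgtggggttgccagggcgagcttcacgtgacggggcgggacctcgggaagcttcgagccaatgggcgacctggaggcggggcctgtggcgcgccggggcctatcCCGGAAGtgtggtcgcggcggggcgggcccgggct
Eif3f: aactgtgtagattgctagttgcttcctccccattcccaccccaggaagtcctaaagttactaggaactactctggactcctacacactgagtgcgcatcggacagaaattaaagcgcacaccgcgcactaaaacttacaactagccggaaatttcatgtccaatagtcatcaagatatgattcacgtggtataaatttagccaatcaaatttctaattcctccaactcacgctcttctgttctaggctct
Eif1ax holds 1 ETS match, Eif5a2 holds 2 and Eif3f holds none in these windows.

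RefSeq promoters, from 250 bases before to 50 after a start, were matched for 37 of 49 members by symbol. On both strands, 15 of the 37 held the ETS motif, beside 9.93% of 27025 genes. The NRF1 motif was found in 7 of the 37, beside 5.19% of genes. The composite element of ATF4 and C/EBP, TGATGNAA, was found in 0 of the 37, beside 4.51% of genes. Eif4ebp1 was not among the 37, so its promoter was not searched. The 3 motifs were counted separately, and a match is a description of the letters only.

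By role, no group had a member called for mutant Gars in Gcn2+/+ mice. Of the 14 eIF3 genes, 8 had log2 changes above 0 and 6 below, with a median of 0.058, and 0 were called. The 5 genes of the eIF1 and eIF1A group, which includes Eif1ad, lay between -0.38 and -0.034, with a median of -0.13 and 0 called. Of the 5, 1 had an unadjusted p below 0.05, and the median of all tested genes was 0.012. For mutant Gars in Gcn2-/- mice the 5 lay between -0.19 and -0.00057, with a median of -0.062. None had an unadjusted p below 0.05 there, and the median of all tested genes was 0.0028. No role was tested as a set. In Gcn2+/- mice 3 lay above 0 and 2 below, with a median of 0.16. The 5 eIF2B genes had a median of -0.027 for mutant Gars in Gcn2+/+ mice and lay between -0.035 and 0.014. The eIF2B genes also varied little with loss of Gcn2, between -0.023 and 0.052 in the averaged comparison. In TPM the picture of eIF2B was less even, because Eif2b2 had 82.8 ± 23.7 TPM in the Gcn2+/+ Gars+/+ mice and 119 ± 11.8 with mutant Gars while its log2 change in counts was -0.02 ± 0.08. Its TPM per CPM varied 1.73-fold over the libraries, the most of 47 members compared.

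Females and males did not differ detectably in the members. By edgeR 0 of 48 were called (0.0804% of all genes), with 0 at an unadjusted p below 0.05 (2.79% of all) and 0 by DESeq2 (0.127% of its genes). The smallest p values belonged to Eif2b1 at 0.084 ± 0.050 (female minus male), Eif3j1 at 0.094 ± 0.057 and Eif5b at -0.046 ± 0.029 (all edgeR adjusted p = 1.0). Eif4ebp1 stood at -0.32 ± 0.25 (edgeR adjusted p = 1.0). The interval lay within 0.32 of 0 for 45 of 48 members and for 65.5% of all tested genes.

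Few other genes of the pathway were called. Tested were 28 partners and regulators without an Eif symbol, such as poly(A)-binding proteins, eIF4E kinases and parts of the mTOR pathway. Of these, 0 were called with mutant Gars in any Gcn2 genotype and 0 with loss of Gcn2. In those comparisons 0.0115% to 0.632% of all genes were called, so 0 of 28 does not set the list apart. Where the Gars effects of Gcn2+/- and Gcn2+/+ mice were compared, 1 of 28 was called beside 3.7% of all genes, Mcts1, a reinitiation factor, at 0.70 ± 0.19 (edgeR adjusted p = 0.0474). Ddx3x, an X-linked helicase, was higher in females by 0.43 ± 0.05 (edgeR adjusted p = 0.000115), where 0.0804% of all genes were called. Of 16 elongation and release factors 0 were called in any of the 10 comparisons, where 0.0115% to 3.7% of all genes were called. Closest was Eefsec, which carries selenocysteine tRNA, at -0.48 ± 0.14 for the Gars effect in Gcn2+/- against that in Gcn2+/+ mice (edgeR adjusted p = 0.053).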

How the data were processed

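Polyadenylated RNA of whole spinal cord was sequenced in 24 libraries as 75-base pairs with stranded kits, per the labels' protocols, which name more than 1 kit without saying which library had which. The authors deposited expected counts and TPM for each gene. The submitters' processing notes name Bowtie2 2.2.0 and RSEM 1.2.12. Their genome build, annotation and strand setting were not given in the sources used here. An expected count shares out reads that match several genes, and 72.0% of values above 0 were whole to within 0.005. Of 38924 gene identifiers 37607 matched GENCODE M21 (GRCm38), which gave symbols and positions, and the rest held 0.261% of counts.

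Expected counts were rounded, filtered with filterByExpr by group, scaled by TMM and tested with edgeR 4.0.16 (quasi-likelihood, robust, R 4.3.3) in 1 fit of 6 genotypes and sex, with Benjamini-Hochberg adjustment over 17409 genes. Genotype and sex came from the labels. Values after ± on log2 changes are SEs. DESeq2 1.42.0, other scalings, filters, designs and left-out libraries were alternatives. The edgeR fit was also run on simulated counts, for mutant Gars in Gcn2+/+ mice and for the averaged loss of Gcn2 only. Those counts had the same spread for every gene and no effect of sex, title number or tissue. The simulation therefore cannot show how the fit behaves for differences of Gars effects. The members, gene lists and tests were chosen with earlier results of these data known.

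Values in a comparison are given for called members, for up to 3 members with the smallest p and for Eif4ebp1. Levels are given for the highest and lowest of each role and for the 3 with the largest spread. Other genes are Eif2ak4 as label check and up to 3 of each other list. The Eif4g2 change in Gcn2+/+, the paralogue ratios, Eif3j sums, DESeq2-only calls and Eif2b2 levels were chosen after values were seen. Protein sequences were not used here.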

Additional observations from a re-analysis of the deposited data

Results flagged for a closer look

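For 4 members the effect of mutant Gars differed between Gcn2+/- and Gcn2+/+ mice in edgeR's quasi-likelihood test. The log2 difference was 0.60 for Eif1ax, 0.66 for Eif5a2, 0.34 for Eif4g2 and -0.38 for Eif3f, and the report gives their errors, adjusted p values and the libraries without which the calls ended.

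Single libraries stood far from the rest of their group in 5 of 95 pairs of a gene and a group, checked over 19 genes or sums named in the text. Chance gives about 1 in 20 for independent groups, but 3 of the 5 come from the same library, replicate 1 of the Gcn2+/- GarsP278KY/+ mice. It had 213 CPM of Eif3c against 195 to 196 in the others of its group, 722 CPM of Eif4g2 against 807 to 823, and 57.2 CPM of Eif3j1 and Eif3j2 together against 76.2 to 80.0. Replicate 2 of that group had 87.6 CPM of Eif2s2 against 83.3 to 83.7. Replicate 1 of the Gcn2-/- GarsP278KY/+ mice had 208 CPM of Eif1ax against 155 to 165.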

How the results depend on the processing

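The averaged changes of Eif3j1 and Eif3j2 with loss of Gcn2 were called in all 35 alternatives that kept their counts apart. With the counts of both genes added together, an alternative chosen after seeing the data, the change of both as 1 gene was 0.00084 on average, 0.097 with mutant Gars and -0.095 with Gars+/+, in place of the falls of Eif3j2 alone. With mutant Gars the 2 members called with loss of Gcn2 became 0 in a fit of the compared groups alone, 1 in a fit of the 4 genotypes of the design text, and 1 without the 4 libraries highest in Schwann cell markers or with those markers as a covariate, both also chosen after seeing the data. They were 1 to 2 with 1 library left out. With Gars+/+, DESeq2 called 1.

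The 4 members whose Gars effect differed between Gcn2+/- and Gcn2+/+ mice became 7 with DESeq2 and 0 without the filter on low counts, in a fit of the compared groups alone, without both libraries high in Schwann cell genes, without the 4 highest, with the Schwann cell covariate and with the covariate for long and short genes. They were 0 to 11 with 1 library left out. All genes called there went from 644 to 1696 with DESeq2, 10 without the filter, 1 with the length covariate, and 0 to 1784 with 1 library left out. The cause was not tested. For mutant Gars in Gcn2+/+ mice 0 members became 4 with DESeq2 and 0 to 4 with 1 library left out, while all genes called went from 110 to between 11 and 648. Averaged over Gcn2 genotypes, DESeq2 called 1 member. All genes called ranged over the settings that kept all libraries or dropped a set of them from 4 to 191 for mutant Gars in Gcn2+/- mice (31 as reported), from 52 to 203 for its average (78), from 21 to a higher count with DESeq2 for loss of Gcn2 with mutant Gars (86) and from 66 to 205 for its average (108). In TPM in place of CPM, the level with mutant Gars over that with Gars+/+ in Gcn2+/+ mice was 0.955 in place of 0.756 for Eif1ax and 1.44 in place of 0.997 for Eif2b2.

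Titles carry 8 numbers that recur across genotypes, and the labels do not say what a number marks. Of 32 pairs of libraries with the same number in different groups, 24 had a residual correlation over 0.1 and the median was 0.23 (-0.12 to 0.42), beside -0.023 for 207 pairs with different numbers. With the title number as a replicate block, 0 members had a Gars effect called as different in Gcn2+/- from Gcn2+/+ mice, and 1 was called with loss of Gcn2 and mutant Gars.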
